A study of Mus musculus with 4 samples.

Results

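The retinoic acid pathway was represented by 9 of the 32285 genes counted, chosen by symbol: Rbp4, Aldh1a1, Aldh1a2, Aldh1a3, Crabp1, Crabp2, Cyp26a1, Cyp26b1 and Rarb. Single cells of mouse molar tooth organs were sequenced from both jaws at 2 stages, with 6 tooth organs pooled in each of the 4 libraries. The E15.5 maxillary, E15.5 mandibular, P1 maxillary and P1 mandibular libraries all came from WTB6 mice with no treatment named, the embryos labelled E15 in the sample records and E15.5 in the protocol, and the pups labelled P1 with P0/P1 in the protocol. With 1 library per stage and jaw there was no replicate and no test, and all intervals below are exact 95% intervals that cover counting error only. A UMI is the tag of 1 captured RNA molecule. After barcodes under 1000 UMIs and P1 mandibular barcodes also found in the P1 maxillary library were set aside, 44144 cells remained.

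Retinoic acid is made from vitamin A and acts at short range on gene expression in many developing organs, the head and teeth among them. Rbp4 carries retinol in blood, the Aldh1a enzymes carry out the last step of synthesis, and Crabp1 and Crabp2 bind retinoic acid in the cell. Cyp26a1 and Cyp26b1 break retinoic acid down, and Rarb is a nuclear receptor for it whose own gene is a known target of the pathway.

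The libraries held 109723360 UMIs (E15.5 maxillary), 86659227 (E15.5 mandibular), 128812956 (P1 maxillary) and 139873101 (P1 mandibular). They gave 10073, 6911, 17040 and 10120 cells in that order. The median cell held 9596, 11234, 4019 and 10390 UMIs. The P1 libraries shared 7131 barcodes, which is 38.1% of the maxillary and 36.8% of the mandibular barcodes. In the maxillary library a shared barcode had a median of 12088 UMIs, against 2870 for the same barcodes in the mandibular library, from which they were removed. The P1 maxillary library therefore has a shared part and a part of 9911 cells that is not shared, with a median of 2545 UMIs. The shared part held 97.1% of its dental papilla-like cells, 95.5% of its ameloblast-lineage-like cells, 70.8% of its epithelium and 49.8% of its mesenchyme.

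The parts of that library stood apart in genes outside the pathway as well. Hand2, a transcription factor of the lower jaw, was at 21.7 and 9.12 CPM (UMIs per 1000000 UMIs of the group) in mandibular mesenchyme at E15.5 and P1 and at 1.41 CPM in maxillary mesenchyme at E15.5. In P1 maxillary mesenchyme it had 4 UMIs in the shared cells and 0 in the others, so neither part had the lower-jaw level. Ddx3y, from the Y chromosome, was at 12.1 CPM in the shared cells and 52.7 CPM in the others, beside 7.68 CPM in P1 mandibular mesenchyme and 56.4 CPM in E15.5 maxillary mesenchyme. Dlx5 was at 163 CPM in the shared cells and 15.7 CPM in the others. The part that is not shared held 770 neuron-like, 507 olfactory sustentacular-like, 253 gland-like and 74 ciliated airway-like cells. The shared part held 3 neuron-like, 1 olfactory sustentacular-like and 2 gland-like cells. Of mesenchyme outside the named classes, 3350 cells were not shared and 67 were. Only 104 dental papilla-like and 11 ameloblast-lineage-like cells were not shared. Whether the cells that are not shared came from the same molars was not tested. Values without the shared barcodes describe those cells alone, a makeup unlike that of the shared part. With the main settings, ratios of whole epithelium or mesenchyme that use the P1 maxillary library are given with and without the shared barcodes. Levels and ratios of single classes are with them unless stated.

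Cells were clustered in each library without the pathway genes and named by markers. Of the 10 epithelial markers, 10, 10, 9 and 10 were found in at least 10% of the epithelial cells of the 4 libraries, and all 7 mesenchymal markers were found in the mesenchyme of each. The ameloblast-lineage-like classes at P1 had 6 of 7 markers, led by Amelx, with Amtn at 0 in the maxillary one. The tendon-like name covers unlike clusters at P1. The mandibular one was led by Tnmd with 7758 CPM summed over the 5 tendon markers, while the maxillary one was led by Pappa2, C1qtnf3 and Itgbl1 with 437 CPM, and is called the Pappa2 and Itgbl1 cluster below. The epithelium compared below is oral and dental epithelium, without the gland-like, olfactory and ciliated airway cells of the nose and glands that some libraries also held. Immune-like cells served as a measure of free RNA, since none of these genes is a defining gene of that class.

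A search for the direct repeat of the retinoic acid receptor's half-site, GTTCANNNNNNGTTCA on either strand, was made in 300-base RefSeq promoter windows of GRCm38.p6. It was found in 25 of 32851 windows, or 0.0761%, and in windows of 2 members, Rarb and Cyp26a1, of the 7 members with a window. Only this spelling of the half-site was searched, so these shares do not show that the repeat is commoner in members. The window of Gm32342, on the opposite strand, overlaps that of Cyp26a1 and is among the 25. A match is a string of letters, not evidence of binding. The 30 bases around the repeat of each are shown, with the repeat in capitals, because the ameloblast-lineage-like cells described below were the highest named class for Cyp26a1 and among the lowest for Rarb. The Rarb stretch is chr14:16575506-16575535 on the minus strand, and the repeat ends 36 bases before the start used by RefSeq. GENCODE vM21 places all 30 bases in an exon of Rarb, in a UTR. The Cyp26a1 stretch is chr19:37697769-37697798 on the plus strand, and the repeat, read on the opposite strand, ends 16 bases before the RefSeq start. All but 1 of these bases lie before the annotated gene.
Rarb: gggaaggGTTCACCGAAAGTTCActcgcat
Cyp26a1: ttaaagaTGAACTTTGGGTGAACtaatttg

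Rbp4 (ENSMUSG00000024990, chr19:38116629-38125281, mm10) was a gene of embryonic mesenchyme. Its mesenchymal level was 30.6 CPM (E15.5 maxillary), 114 CPM (E15.5 mandibular), 3.12 CPM (P1 maxillary) and 17.9 CPM (P1 mandibular). The E15.5 level was thus above the P1 level in each jaw, and the mandibular level above the maxillary at each stage. The highest class at E15.5 was a mesenchyme marked by Ebf2 and Meox2, at 266 CPM (250 to 284) in the maxillary and 278 CPM (269 to 288) in the mandibular library. Next came fibroblasts marked by Dpt and Clec3b, at 49.97 and 79.2 CPM. At P1 no maxillary class was above 19.3 CPM, the level of the Pappa2 and Itgbl1 cluster. In the P1 mandibular library an Ebf2 and Dlk1 cluster of 703 cells had 115 CPM. In epithelium Rbp4 was between 0.255 and 2.56 CPM in the 4 libraries, below the immune-like level of each.

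Aldh1a2 (ENSMUSG00000013584, chr9:71215789-71296243), the main retinaldehyde dehydrogenase of early embryos, was highest in the same fibroblastic cells at E15.5. The Ebf2 and Meox2 mesenchyme had 201 CPM (187 to 216) and 183 CPM (176 to 190), maxillary then mandibular, and the Dpt and Clec3b fibroblasts had 164 and 100.4 CPM. At P1 the Dpt and Clec3b fibroblasts had 69.3 and 91.5 CPM, and the Ebf2 and Dlk1 cluster of the mandibular library had 227 CPM (217 to 238). Dental papilla-like cells were far lower at P1, at 1.44 and 5.26 CPM. Rbp4 and Aldh1a2 had the highest correlation of any pair of the 9 genes, with r = 0.78 for log2(CPM + 1) over 66 classes that share libraries and depth.

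Aldh1a3 (ENSMUSG00000015134, chr7:66390890-66427517), another enzyme of the same step, was led by different classes at the stages. At E15.5 it was highest in the Ebf2 and Meox2 mesenchyme, at 113 CPM (102 to 124) and 138 CPM (132 to 144). At P1 it was highest in dental follicle-like cells, at 167 CPM (155 to 181) in the maxillary and 190 CPM (163 to 221) in the mandibular library. The leading genes of both P1 clusters held the follicle markers Igfbp5, Bmp3 and Spon1, with Foxf1 in the mandibular one. They also held the osteoblast markers Ibsp and Runx2, so this name is uncertain. The P1 maxillary class was at 205 CPM in cells with shared barcodes and at 69.7 CPM (54.6 to 87.6) in the others. The E15.5 maxillary dental follicle-like cells had 18.1 CPM, but they need not be the same cells, since the main E15.5 cluster was led by Pappa2 and Itgbl1 and the P1 cluster by Ibsp and Pdzrn4. The dental follicle is the mesenchyme around the tooth germ that gives rise to cementum and periodontal ligament.

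Aldh1a3 also appeared in part of the epithelium. A P1 maxillary cluster of 437 epithelial cells led by Nppc, with Pitx1 among its leading genes, had 266 UMIs of Aldh1a3 in 44 cells, of which 258 UMIs were in 38 cells with shared barcodes. In the maxillary libraries the gland-like epithelium had 69.6 CPM in the embryo and 43.6 CPM in the pup. The olfactory sustentacular-like cells, which support the smell-sensing neurons, had 52.0 CPM.

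Aldh1a1 (ENSMUSG00000053279, chr19:20492715-20643465), the third enzyme, was in mesenchyme at 4.41, 10.3, 2.35 and 10.7 CPM in the order of the libraries above. It has a near copy, Aldh1a7, so reads of one may have been given to the other, which was not tested. Among classes of tooth and jaw, the Dpt and Clec3b fibroblasts were highest in 3 libraries, at 16.3 and 20.9 CPM at E15.5 and 37.6 CPM in the P1 mandibular library. In the P1 maxillary library they had 11.5 CPM (9.22 to 14.2), and epithelium outside the named classes had 12.2 CPM (10.6 to 13.9), with overlapping intervals. The highest level of all was in ciliated airway-like cells of the P1 maxillary library, at 148 CPM (121 to 179), and the gland-like epithelium there had 57.9 CPM (45.0 to 73.3). Ameloblast-lineage-like cells had 0 UMIs in both P1 libraries, which allows a level of up to 0.916 and 0.648 CPM, the level of 3 UMIs.

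Crabp1 (ENSMUSG00000032291, chr9:54764748-54773110), which binds retinoic acid in the cytoplasm, was a mesenchymal gene in all 4 libraries, at 152, 244, 198 and 222 CPM. The Ebf2 and Meox2 mesenchyme was again highest at E15.5, at 328 CPM (310 to 348) and 353 CPM (343 to 363). At P1 the dental papilla-like cells, which give rise to dental pulp and odontoblasts, had 261 CPM (257 to 266) in the maxillary and 438 CPM (429 to 446) in the mandibular library. The name covers unlike clusters in the jaws. A cluster led by Csmd1 was papilla-like in the maxillary library (1046 cells), while the mandibular cluster led by Csmd1 (692 cells) was left as other mesenchyme. At E15.5 the dental papilla-like cells had 266 CPM, from 78 cells, and 186 CPM, from 149 cells. In the mandibular jaw the P1 class was therefore 1.23 higher on the log2 scale (1.07 to 1.40). In the maxillary jaw the interval of the difference, -0.23 to 0.18, held 0. The classes need not be the same cells at the stages, since the E15.5 clusters were led by Rspo2 (maxillary) and Col8a1 (mandibular). The P1 clusters were led by other genes, such as Grik1 and Pappa in the maxillary and Cntn6 and Pcp4 in the mandibular library.

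Within the P1 maxillary papilla Crabp1 was uneven. The shared cells made up nearly all of it, and the 104 cells that were not shared had 128 CPM (90.8 to 174). One cluster of 541 papilla-like cells led by Pappa had 684 CPM (663 to 705), with a UMI in 85.4% of its cells. The highest Crabp1 level of any class was in neuron-like cells of the P1 maxillary library, at 1442 CPM (1398 to 1487). In epithelium Crabp1 was at 11.6, 88.6, 12.02 and 14.5 CPM, and the immune-like level was 18.6, 6.82, 16.1 and 51.0 CPM. With all cells the epithelial level was thus above that background in the E15.5 mandibular library only. The epithelium of that library was 1 cluster of 145 cells led by Krt13, Krt5 and Krt14. Among P1 maxillary cells that were not shared, epithelium had 37.8 CPM (29.3 to 48.0) and immune-like cells 25.2 CPM (17.6 to 35.0), with intervals that overlap.

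Crabp2 (ENSMUSG00000004885, chr3:87948666-87953376), which delivers retinoic acid to the receptors, was spread over both tissue layers. Epithelium had 76.5, 102, 31.6 and 22.6 CPM and mesenchyme had 60.9, 63.5, 36.7 and 21.4 CPM. The E15.5 values were above the P1 values in both layers and jaws, but P1 maxillary mesenchyme had 76.3 CPM without the shared barcodes, which is above its E15.5 value. Suprabasal oral epithelium-like cells had 107 CPM (94.6 to 121) in the E15.5 maxillary and 108 CPM (86.9 to 132) in the P1 mandibular library. In the P1 maxillary library they had 56.3 CPM. The ameloblast-lineage-like cells had 1.53 and 0.432 CPM, below the immune-like levels of 8.65 and 4.91 CPM.

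Cyp26a1 (ENSMUSG00000024987, chr19:37697798-37701536) was at its highest at P1, in ameloblast-lineage-like cells, in clusters led by Vwde and in an unnamed mandibular cluster led by Frem2. Ameloblast-lineage-like cells, the enamel-forming epithelium, had 890 CPM (857 to 922) in the P1 maxillary and 618 CPM (596 to 641) in the P1 mandibular library. A UMI of Cyp26a1 was found in 89.8% of the 245 maxillary and 78.1% of the 397 mandibular cells of that class, and in 51.8% and 34.8% of them after each cell was thinned to 1000 UMIs. Of the maxillary cells, 11 were not shared, and these had 405 CPM (163 to 835) from 7 UMIs. The immune-like level was 19.4 and 12.2 CPM and was uneven, since 41 of 65 maxillary and 54 of 67 mandibular UMIs were in 3 cells each. All 65 were in shared cells, and the 447 immune-like cells that were not shared had 0. In the same ameloblast-lineage-like cells Aldh1a2 was at 0 and 1.30 CPM and Aldh1a3 was at 4.88 and 2.81 CPM. Rarb was at 4.88 CPM (2.79 to 7.93) and 2.59 CPM (1.34 to 4.53) there, below its immune-like levels of 10.1 and 12.6 CPM.

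Clusters led by Vwde, one of the markers of the ameloblast lineage used here, had 430 CPM (415 to 446) in the maxillary and 243 CPM (223 to 264) in the mandibular library. A mandibular cluster of 532 cells led by Frem2, Igfbpl1 and Calb1, left unnamed because the neuronal gene Stmn2 was among its leading genes, had the highest level of that library, 827 CPM (806 to 848), and 56.4% of the Cyp26a1 UMIs of its library. Together with the ameloblast-lineage-like cluster, at 27.8%, it held most of them, as the ameloblast-lineage-like cluster (44.7%) and the Vwde cluster (47.5%) did in the maxillary library.

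The remaining epithelium had less Cyp26a1. The maxillary Nppc cluster had 67.4 CPM (56.9 to 79.4), and mandibular clusters led by Mindy4 and by Enpp2 had 60.1 and 37.3 CPM. Clusters led by Odam had 15.6 and 12.3 CPM. The gland-like, olfactory and ciliated classes of the P1 maxillary library had 0 UMIs. At E15.5 the highest clusters had 19.5 CPM (15.52 to 24.1) in the maxillary and 23.4 CPM (18.04 to 29.9) in the mandibular library, beside immune-like levels of 0.614 and 0 CPM. P1 mandibular glia-like cells had 84 UMIs in 10 of 99 cells, of which 74 were in 3 cells, and 4 of the 10 cells were among the highest doublet scores.

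**Figure D1:**
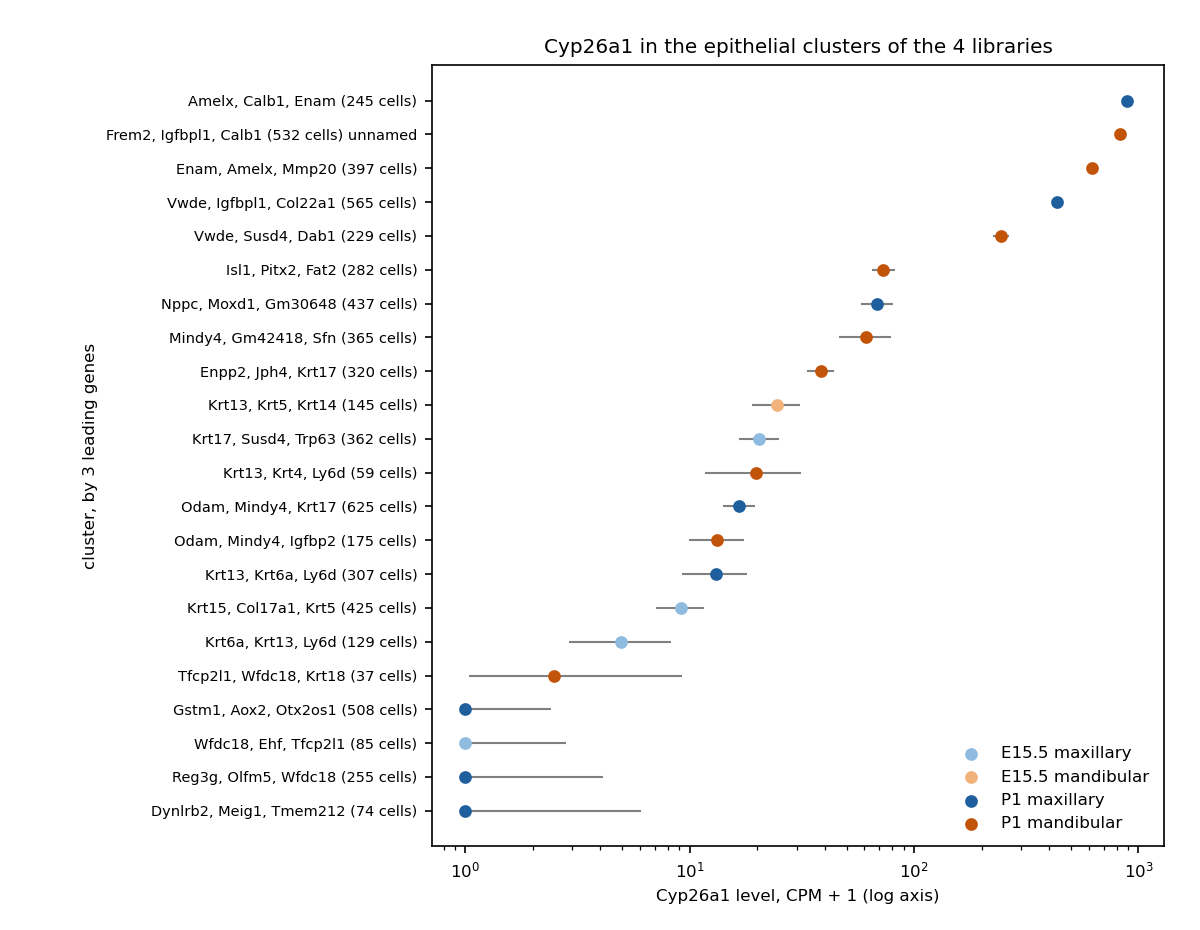
Level of Cyp26a1 (x axis, CPM + 1, log scale) in each epithelial cluster and in the unnamed Frem2 cluster (y axis, by 3 leading genes), coloured by library, with 95% counting intervals. The clusters at 890, 827, 618, 430 and 243 CPM are all from P1, and the E15.5 clusters lie at 23.4 CPM or lower.

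Cyp26b1 (ENSMUSG00000063415, chr6:84571414-84593908), the other breakdown enzyme, was a mesenchymal gene at 31.6, 10.6, 9.66 and 3.29 CPM. It followed clusters led by Pappa2 and Itgbl1, which had 87.4 CPM in the E15.5 maxillary library, 84.0 CPM in the E15.5 mandibular and 80.0 CPM (69.5 to 91.7) in the P1 maxillary one. In the latter the shared cells had 98.5 CPM and the others 64.8 CPM (52.2 to 79.4). The E15.5 maxillary cluster was most of the dental follicle-like class, which had 64.8 CPM (60.8 to 68.8) as a whole. In the P1 mandibular library the Tnmd-led tendon-like cells were highest, at 23.7 CPM (19.0 to 29.2). Epithelium had 3.97, 0.366, 0.637 and 0.380 CPM, the second of these from 1 UMI. Cyp26a1 and Cyp26b1 thus lay in different tissue layers, with Cyp26a1 at most at 3.85 CPM in mesenchyme and Cyp26b1 at most at 3.97 CPM in epithelium.

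Rarb (ENSMUSG00000017491, chr14:16430839-16819156) was broadly present, with 60.5, 74.5, 103 and 92.5 CPM in mesenchyme and 63.7, 108, 42.1 and 63.7 CPM in epithelium. Dental papilla-like cells had 182 CPM (153 to 215) and 110 CPM (95.2 to 127) in the embryo, and 119 and 116 CPM in the pup. Dental follicle-like cells were highest among tooth classes at P1, at 151 CPM (139 to 164) and 187 CPM (160 to 217). These are the cells where Aldh1a3 was highest, and whose leading genes also held osteoblast markers. The maxillary ones had 155 CPM in shared cells and 139 CPM (118 to 164) in the others. The ameloblast-lineage-like cells of P1 were low in Rarb, at 4.88 CPM (2.79 to 7.93) and 2.59 CPM (1.34 to 4.53).

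**Figure D2:**
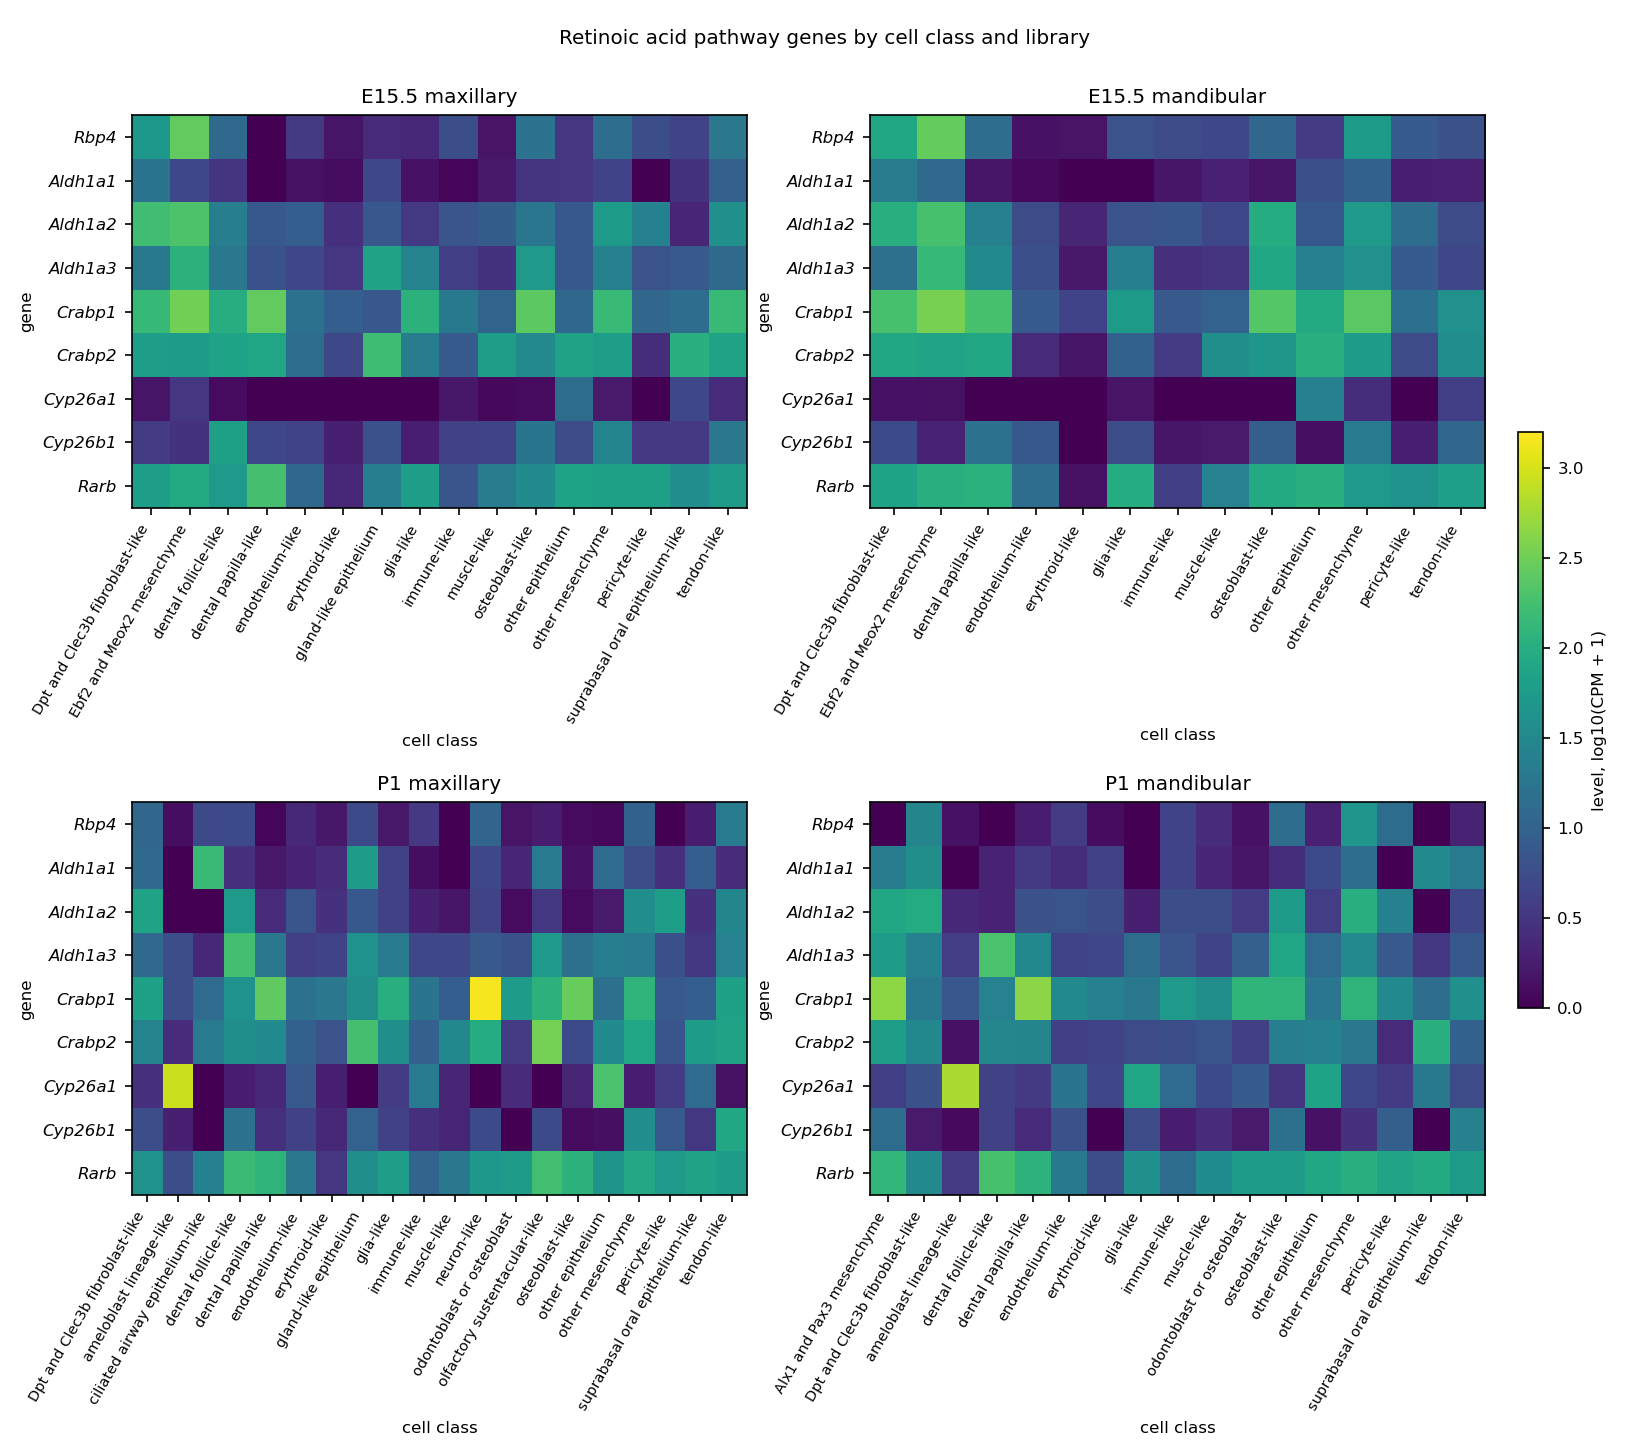
Level of the 9 genes (rows) in each cell class (columns) of the 4 libraries, as log10(CPM + 1) in colour, with the P1 maxillary Pappa2 and Itgbl1 cluster in the tendon-like column. Cyp26a1 is bright in the ameloblast-lineage-like columns of both P1 panels, at 890 and 618 CPM, and Crabp1 in the neuron-like column of the P1 maxillary panel, at 1442 CPM.

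The tissue layers were compared within each library, where a gene is counted as past 2-fold when the log2 ratio is at least 1 in size, its interval is without 0 and the higher layer has at least 5 CPM. Of the members with 5 CPM, 6 of 8 (E15.5 maxillary), 7 of 9 (E15.5 mandibular), 6 of 8 (P1 maxillary) and 6 of 8 (P1 mandibular) were past 2-fold. Over all genes tested the share was 24.9%, 28.6%, 25.5% and 26.5%. Without the shared barcodes the P1 maxillary count was 6 of 8 as well, beside 28.7%. Most of these members were higher in mesenchyme, with 5, 6, 4 and 5 of them in that direction, beside 15%, 15.3%, 15.6% and 15.4% of all genes. In the P1 maxillary library 5 were higher in mesenchyme without the shared barcodes, beside 16.9%. The median log2 ratio of the members with 5 CPM was -2.53, -1.42, -0.86 and -1.47, while the median of all genes with at least 50 CPM was within 0.0862 of 0. In the P1 maxillary library without the shared barcodes, the middle values of the 8 members were -1.63 (Aldh1a3) and -1.61 (Crabp1).

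Cyp26a1 was higher in epithelium in all 4 libraries. The log2 ratio of epithelium to mesenchyme was 4.09 (3.58 to 4.62), 4.78 (4.18 to 5.39), 7.78 (7.49 to 8.09) and 5.62 (5.44 to 5.80), and the P1 maxillary value was 5.75 (4.95 to 6.64) without the shared barcodes. The P1 mandibular value leaves out the unnamed Frem2 cluster and was 6.50 with it. At P1 its mesenchymal level was 1.22 and 3.85 CPM. Aldh1a2 and Crabp1 were past 2-fold higher in mesenchyme in each library, and so was Rbp4 in all but the P1 maxillary one. There Rbp4 was at 3.12 CPM and so under the minimum. Without the shared barcodes it was past 2-fold there at -4.43 (-9.74 to -1.93), from 1 UMI in epithelium. For Aldh1a2 the log2 ratio lay between -3.43 and -4.44, for Rbp4 between -3.61 and -5.48, and for Crabp1 between -1.46 and -4.04. Without the shared barcodes the P1 maxillary values of Aldh1a2 and Crabp1 were -4.01 and -1.61. Aldh1a3 was past 2-fold higher in mesenchyme at E15.5 in both jaws and in the P1 mandibular library. Its E15.5 maxillary ratio of -2.07 was -0.92, short of 2-fold, with the nasal and gland classes counted as epithelium. Cyp26b1 was past 2-fold higher in mesenchyme in both E15.5 libraries and the P1 maxillary one. In the P1 mandibular library its ratio was -3.11 (-4.34 to -2.11), but its mesenchymal level of 3.29 CPM was under the minimum. In the P1 maxillary library Aldh1a3 was at -0.44 with the shared barcodes and past 2-fold at -1.63 (-2.60 to -0.80) without, and Cyp26b1 was at -3.62 without. Crabp2 was not past 2-fold in any library with all cells, and its largest log2 ratio was 0.68 (0.50 to 0.86) in the E15.5 mandibular library.

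Aldh1a1 was past 2-fold in both directions. It was higher in mesenchyme at E15.5 mandibular (log2 -1.01) and P1 mandibular (-1.28), and higher in epithelium in the P1 maxillary library (2.09, 1.81 to 2.38). Both mandibular values were close to the limit, and fell short of 2-fold with at least 2000 UMIs at E15.5 (-0.9988) and with the shared barcodes kept in both libraries at P1 (-0.66). Without the shared barcodes the P1 maxillary ratio was -1.26, with 3 UMIs in epithelium. Rarb was past 2-fold in the P1 maxillary library only, at -1.29 (-1.39 to -1.19), and was at -0.45 there without the shared barcodes. Short of 2-fold it was higher in epithelium in the E15.5 mandibular library, at 0.54 (0.36 to 0.71). Crabp2 also had different layers higher, at 0.33 (0.23 to 0.43) in the E15.5 maxillary and -0.22 (-0.34 to -0.10) in the P1 maxillary library, or -0.72 without the shared barcodes.

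**Figure D3:**
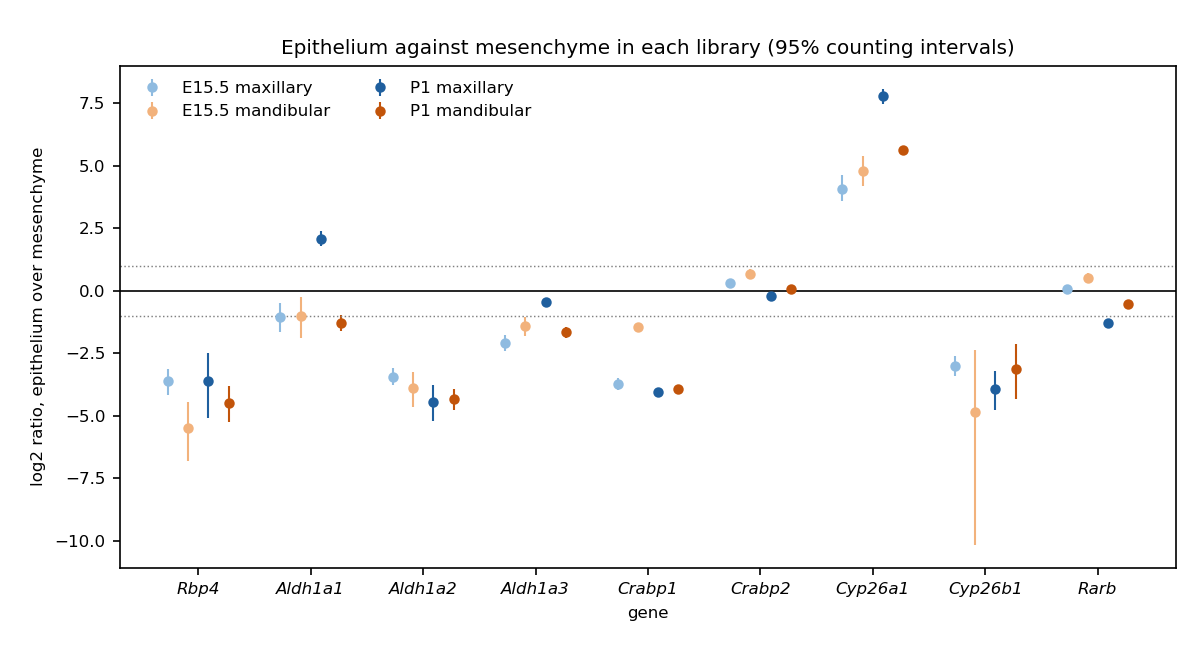
Log2 ratio of epithelium to mesenchyme (y axis) for the 9 genes (x axis) in the 4 libraries, with 95% counting intervals and dotted lines at 2-fold. Cyp26a1 lies above 4 in each library, Crabp2 lies between -0.22 and 0.68, and Aldh1a1 is above 0 in the P1 maxillary library only.

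The stages were compared within each layer and jaw, and each E15.5 and P1 level is a single library. In epithelium 5 of 7 members with 5 CPM were past 2-fold in the maxillary jaw and 5 of 7 in the mandibular jaw, beside 16.2% and 15.7% of all genes. In mesenchyme 3 of 7 and 5 of 8 members were past 2-fold, beside 10.1% and 11.1%, and in both jaws all of them were lower at P1, beside 4.13% and 3.5% of all genes in that direction. Without the shared barcodes the maxillary counts fell to 2 of 6 in epithelium, beside 7.81% of all genes, and 1 of 7 in mesenchyme, beside 2.4%. The cell classes named differed between stages, with no Ebf2 and Meox2 class of 50 cells at P1. This depends on the naming, since the Ebf2 and Dlk1 cluster of 703 cells in the P1 mandibular library scored highest for that marker list but was left as other mesenchyme. All E15.5 mandibular epithelium was 1 cluster of 145 cells led by Krt13, Krt5 and Krt14. P1 mandibular epithelium was 1827 cells, 397 of them ameloblast-lineage-like. Every mandibular epithelial ratio between stages rests on that E15.5 cluster. Since the classes differed, the makeup of a layer and the level within its cells cannot be told apart in these ratios.

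In epithelium Cyp26a1 was at 10.9 and 23.4 CPM at E15.5 and at 268 and 189 CPM at P1, maxillary then mandibular. The log2 ratio of P1 to E15.5 was 4.62 (4.38 to 4.86) and 3.02 (2.66 to 3.39), and without the shared barcodes the P1 maxillary level was 56.4 CPM (45.9 to 68.6) and the ratio 2.37. The mandibular value leaves out the unnamed Frem2 cluster, and with it P1 mandibular epithelium had 349 CPM, above the maxillary level, and a ratio of 3.90 (3.54 to 4.28). Crabp2 was lower at P1 in epithelium, at -1.28 in the maxillary jaw, or -0.73 without the shared barcodes, and at -2.18 in the mandibular jaw. Crabp1 in mandibular epithelium was at 88.6 CPM in the embryo and 14.5 CPM in the pup, a log2 ratio of -2.61 (-2.86 to -2.36), with the P1 value below the immune-like 51.0 CPM. With each cell thinned to 1000 UMIs the ratio was -1.14 and no longer past 2-fold by the rule. In maxillary epithelium it was 0.05, but past 2-fold higher at P1 without the shared barcodes, at 1.70 (1.27 to 2.13). Aldh1a2 in epithelium was -2.97 and -1.50, from E15.5 levels of 5.65 and 6.59 CPM that were close to the immune-like 5.98 and 6.24 CPM, and the maxillary ratio was -1.003 (-2.67 to 0.28) without the shared barcodes, which is no longer past 2-fold by the rule. The mandibular ratio turned to 0.19 with means over cells in place of summed UMIs.

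Aldh1a3 in epithelium was at 6.68 and 17.9 CPM in the maxillary jaw and at 23.8 and 9.70 CPM in the mandibular jaw, E15.5 then P1. The ratios had opposite signs, 1.42 (1.09 to 1.77) and -1.29 (-1.70 to -0.87), and the maxillary one was 0.02 without the shared barcodes. Aldh1a1 in maxillary epithelium was 2.24 higher at P1 (1.68 to 2.84), with 236 UMIs, and -0.33 without the shared barcodes, with 3 UMIs. Both of these maxillary values thus rested on the shared cells.

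In mesenchyme Rbp4 was lower at P1, by a log2 ratio of -3.30 (-3.49 to -3.10) in the maxillary and -2.67 (-2.76 to -2.58) in the mandibular jaw. The maxillary ratio was -1.33 (-1.57 to -1.11) without the shared barcodes. In P1 maxillary mesenchyme it was at 1.15 CPM in the shared cells and 12.1 CPM (10.4 to 14.1) in the others, so both parts were below the 30.6 CPM of E15.5. Among classes named at both stages, the Dpt and Clec3b fibroblasts had Rbp4 at -2.27 and Aldh1a2 at -1.25 in the maxillary jaw. In the mandibular jaw they had Rbp4 at -1.53 and Aldh1a2 at -0.13 (-0.28 to 0.01). Other classes went either way. Maxillary dental follicle-like cells, whose clusters differed between stages, had Rbp4 at -1.45 (-2.29 to -0.71) and Aldh1a2 at 1.25 (0.99 to 1.50). Mandibular osteoblast-like cells had Rbp4 at 0.34 (-0.38 to 1.06) and Aldh1a2 at -0.81 (-1.11 to -0.52). In the P1 maxillary fibroblasts Rbp4 was at 3.10 CPM with shared barcodes and at 39.3 CPM (30.0 to 50.6) without, and the latter interval reached the 49.97 CPM of E15.5. Aldh1a2 was at 88.4 CPM (74.2 to 105) in the fibroblasts that were not shared, against 164 CPM at E15.5.

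Aldh1a2 in mesenchyme was lower at P1 by a log2 ratio of -1.96 (-2.05 to -1.86) and -1.06 (-1.12 to -0.99). The maxillary value was -0.41 without the shared barcodes, where the P1 level was 45.6 CPM against 9.13 CPM in the shared cells. Cyp26b1 was lower by -1.71 and -1.68, and the maxillary ratio was 0.14 without the shared barcodes. Mandibular classes went either way for Cyp26b1. Tendon-like cells had it at 1.17 (0.48 to 1.92) and osteoblast-like cells at 0.80 (0.06 to 1.55). Dental papilla-like cells had it at -3.45 (-4.24 to -2.65) and the Dpt and Clec3b fibroblasts at -2.63 (-4.33 to -1.29). In the mandibular jaw Aldh1a3 and Crabp2 were also past 2-fold lower, at -1.05 (-1.13 to -0.97) and -1.57 (-1.66 to -1.48). In the maxillary jaw Crabp2 was at -0.73 with the shared barcodes and at 0.32 (0.23 to 0.42) without, so its direction turned. Crabp1 was at 0.38 with them and at -0.39 (-0.47 to -0.32) without, beside -0.13 in the mandibular jaw. Apart from Cyp26a1, which was under 5 CPM in mesenchyme, Rarb was the member with a higher P1 level in both jaws. Its ratio was 0.77 (0.71 to 0.82) and 0.31 (0.25 to 0.37), short of 2-fold, and the maxillary one was 0.53 without the shared barcodes. Classes named at both stages went either way. Rarb was at -0.51 and -1.07 in the Dpt and Clec3b fibroblasts, maxillary then mandibular. It was lower at P1 in maxillary dental papilla-like (-0.61) and mandibular osteoblast-like cells (-0.70). It was higher in maxillary osteoblast-like (1.72) and dental follicle-like cells (1.55).

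**Figure D4:**
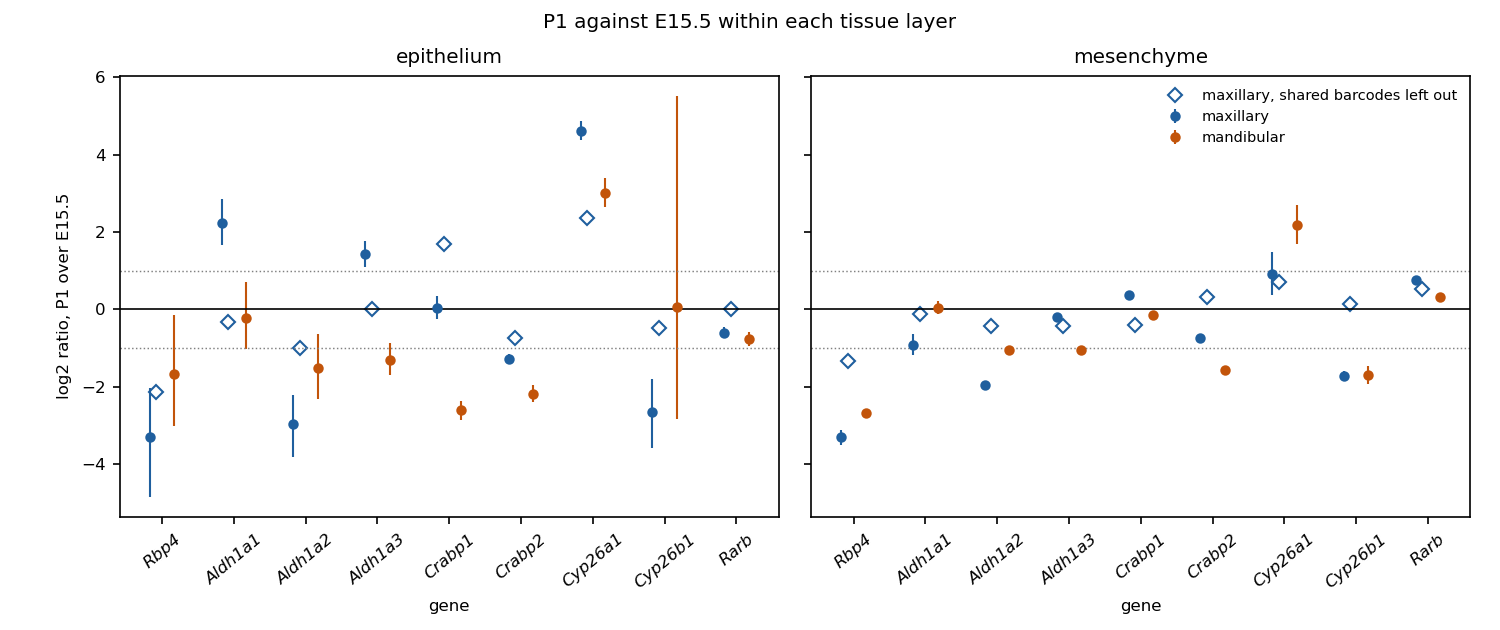
Log2 ratio of P1 to E15.5 (y axis) for the 9 genes (x axis) in epithelium and mesenchyme, by jaw, with 95% counting intervals, dotted lines at 2-fold, and open diamonds for the maxillary jaw without the shared barcodes. Cyp26a1 in epithelium lies above 2 in every setting drawn, and the diamonds of Aldh1a1 and Aldh1a3 in epithelium lie near 0.

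The jaws were compared in mesenchyme at each stage. At E15.5 4 of 8 members with 5 CPM were past 2-fold, beside 4.55% of all genes, and at P1 4 of 8, beside 3.58%. The P1 count without the shared barcodes was 3 of 8, beside 12.4%. Rbp4 was higher in the mandibular library by a log2 ratio of 1.90 (1.82 to 1.98) at E15.5 and 2.53 (2.33 to 2.73) at P1. Aldh1a1 was higher there by 1.23 (1.01 to 1.45) and 2.19 (1.95 to 2.43), and Cyp26b1 was lower there by -1.58 (-1.72 to -1.43) and -1.55 (-1.77 to -1.34). The P1 values rest in part on the shared barcodes. Without them Rbp4 was at 0.56, Aldh1a2 went from 1.58 to 0.04 and Aldh1a1 was at 1.40. Cyp26b1 was further apart, at -3.40 (-3.63 to -3.17), and Crabp2, at -0.78 with them, was past 2-fold lower in the mandibular library at -1.83 (-1.94 to -1.72).

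Aldh1a3 was past 2-fold between the jaws at E15.5, at 1.18 (1.10 to 1.27), and was at 0.34 (0.25 to 0.43) at P1, or 0.55 without the shared barcodes. The Ebf2 and Meox2 mesenchyme, the class with the most Rbp4, held 314 of 5901 mesenchymal cells in the E15.5 maxillary and 931 of 3179 in the E15.5 mandibular library. Within that class Rbp4 was at 266 and 278 CPM with overlapping intervals. In the Dpt and Clec3b fibroblasts it was at 49.97 CPM (44.4 to 56.0) and 79.2 CPM (73.6 to 85.3), with intervals apart and the mandibular level higher. The E15.5 clusters led by Pappa2 and Itgbl1, which Cyp26b1 followed, held 826 of the 5901 maxillary and 209 of the 3179 mandibular mesenchymal cells. Their Cyp26b1 levels, given above, were close to each other. Whether makeup accounts for the ratios between jaws was not tested. Jaw and library cannot be told apart, as each stage has 1 library per jaw.

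**Figure D5:**
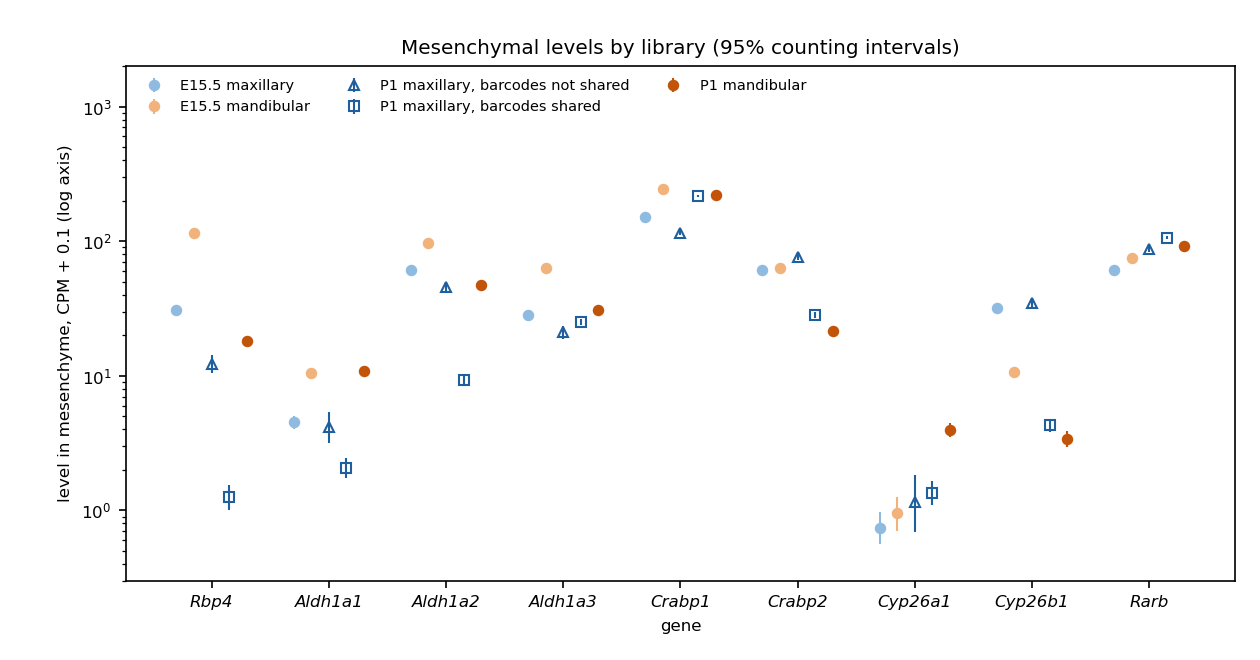
Mesenchymal level of the 9 genes (CPM + 0.1, log scale) in each library, with 95% counting intervals and the P1 maxillary cells split by whether their barcode is shared. For Rbp4, Aldh1a2 and Cyp26b1 the shared cells, at 1.15, 9.13 and 4.18 CPM, lie below the cells that are not shared, at 12.1, 45.6 and 34.8 CPM.

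Of 22 other genes of the pathway, 18 reached 5 CPM in a class of at least 50 cells. In the layer comparison 6 of 14 were past 2-fold in each E15.5 library, 6 of 14 in the P1 maxillary and 6 of 13 in the P1 mandibular library, beside the 24.9%, 28.6%, 25.5% and 26.5% of all genes. The P1 maxillary count without the shared barcodes was 8 of 15, beside 28.7%. Rdh10, which makes retinaldehyde from retinol, was higher in mesenchyme in all 4 libraries, with log2 ratios of -1.44, -1.11, -3.27 and -3.30, the third of which was -1.69 without the shared barcodes. Cyp26c1, the third breakdown enzyme, was higher in epithelium in each, at 5.14, 23.1, 7.82 and 7.32 CPM there and 0.0941, 0, 0.0377 and 0.0147 CPM in mesenchyme, and in the P1 maxillary cells that were not shared at 7.34 CPM in epithelium and 0 UMIs in mesenchyme. Fabp5, a fatty acid binding protein that can also carry retinoic acid, was higher in epithelium by log2 ratios of 2.94, 2.49, 2.21 and 2.31, the third of which was 2.94 without the shared barcodes.

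Between stages 2 of 13 of these genes were past 2-fold in epithelium of each jaw, beside 16.2% and 15.7% of all genes, all of them lower at P1. Fabp5 was one of them in the maxillary jaw, at -1.32, or -0.36 without the shared barcodes, and Cyp26c1 and Aldh1a7 were those of the mandibular jaw, at -1.65 and -1.62. In mesenchyme 3 of 13 in the maxillary and 2 of 13 in the mandibular jaw were past 2-fold, beside 10.1% and 11.1%, and without the shared barcodes the maxillary counts were 1 of 14 in epithelium and 0 of 12 in mesenchyme, beside 7.81% and 2.4%. Tgm2, whose gene is a known target of retinoic acid, was lower in maxillary mesenchyme at P1, at -1.40, but 0.38 without the shared barcodes. Rdh10 and Rxrg were past 2-fold higher at P1 in mesenchyme of both jaws, but in the maxillary jaw this rested on the shared cells. From 21.4 and 20.5 CPM at E15.5 the Rdh10 level was 147 and 114 CPM at P1, a log2 ratio of 2.78 (2.70 to 2.86) in the maxillary and 2.47 (2.37 to 2.57) in the mandibular jaw. Without the shared barcodes the P1 maxillary level of Rdh10 was 21.8 CPM (19.5 to 24.4) and the ratio 0.03 (-0.15 to 0.21). The highest class of at least 50 cells for Rdh10 was the P1 maxillary dental papilla-like one, at 235 CPM (230 to 239). The 104 papilla-like cells among the 4892 mesenchymal cells that were not shared had 173 CPM (130 to 227). Rxrg, a partner of the retinoic acid receptors, was higher at P1 by a log2 ratio of 2.23 and 2.75, at 7.95 and 9.40 CPM. Without the shared barcodes it was at 1.12 CPM in P1 maxillary mesenchyme, and the ratio was -0.59 (-1.45 to 0.17). Between the jaws 0 of 12 of these genes with 5 CPM were past 2-fold at either stage, beside 4.55% and 3.58% of all genes. At P1, 3 of 13 were past 2-fold without the shared barcodes, beside 12.4%, with Rdh10 and Rxrg higher in the mandibular library, at 2.38 (2.22 to 2.55) and 3.07 (2.36 to 3.88), and Tgm2 lower, at -1.83.

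Among classes of at least 50 cells, to which this paragraph is limited, the receptors beside Rarb were led by different cells. Rarg was highest in P1 maxillary dental papilla-like cells, at 112 CPM (109 to 115). The 36 chondrocyte-like cells of that library, too few to be ranked, had 127 CPM (77.7 to 196). Rara was highest in the P1 mandibular epithelium outside the named classes, at 63.0 CPM (59.1 to 67.0). Rxra and Rxrb stayed at or below 39.9 and 33.5 CPM. Dhrs3, which turns retinaldehyde back to retinol, was highest in E15.5 maxillary dental papilla-like cells, at 73.1 CPM (55.0 to 95.1). Adh7 was highest in gland-like epithelium of the P1 maxillary library, at 207 CPM (182 to 235), and Aldh1a7 in olfactory sustentacular-like cells there, at 72.5 CPM (62.6 to 83.6).

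For each member the 3 genes with the most alike pattern were taken by Pearson's r of log2(CPM + 1) over the 66 classes, a description over classes that share libraries and depth. For Cyp26a1 they were Wnt3a (0.93), Shh (0.93) and Wnt7a (0.89), all of which encode secreted signals. For Rarb they were Zfp618 (0.89), Mir100hg (0.86) and Ston1 (0.86), and for Rbp4 they were Magel2 (0.85), Qprt (0.80) and Chrdl1 (0.79). For Aldh1a2 they were Igf1, Hic1 and C1qtnf2 (0.82 each), and for Aldh1a3 they were Grin2b (0.76), Efnb3 (0.73) and Sfrp1 (0.72). For Crabp1 they were Rab39b (0.82), Cntn4 (0.76) and Ptn (0.76), and for Crabp2 they were Ccdc136 (0.83), Tom1l1 (0.77) and Tenm2 (0.77). For Aldh1a1 the values were lowest, led by Gstt3 (0.74), Dnah8 (0.71) and Lypd2 (0.68), and for Cyp26b1 they were Ndnf (0.81), Ptgfr (0.79) and 1700024B18Rik (0.78).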

How the data were processed

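The authors deposited raw UMI counts per gene and barcode for each library, made with Cell Ranger 7.0.1 on mm10 from Chromium 3' libraries. Here barcodes with at least 1000 UMIs were kept, and barcodes also in P1 maxillary were dropped from P1 mandibular. Doublets were not removed, because Scrublet's automatic threshold marked 2 barcodes in all, and removing the highest scores was an alternative. Each library was clustered alone (scanpy 1.11.5, leidenalg 0.10.2) on 2000 variable genes, 40 components and 15 neighbours at resolution 1.0. Mitochondrial, ribosomal protein and pathway genes were left out. Clusters were named from 25 marker lists, needing 3 markers in at least 10% of cells. A level is the summed UMIs of a class per 1000000 UMIs (CPM), with an exact Poisson interval. Ratios have exact binomial intervals, and a count of 0 was set to 3 counts. The genes named are the 9 members, the 22 other pathway genes, 3 alike genes per member and jaw genes. The values of 1 pathway gene and 1 cluster are not reported here.

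The members and lists were chosen with earlier results of these data known. The thresholds of the naming rule and the restriction of epithelium to oral and dental classes were set after the clusters and some levels of members had been seen.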

Additional observations from a re-analysis of the deposited data

Results flagged for a closer look

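Aldh1a3 in epithelium differed between stages in opposite directions in the jaws, with a log2 ratio of P1 to E15.5 of 1.42 in the maxillary and -1.29 in the mandibular jaw. Crabp1 in mesenchyme did so too, at 0.38 and -0.13. These differences between the jaws were not tested, as each jaw and stage is 1 library, and without the shared barcodes the maxillary values were 0.02 for Aldh1a3 and -0.39 for Crabp1, which is then the same direction as the mandibular one.

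Clusters that were given no class held member genes above the immune-like level of their library. The E15.5 mandibular cluster of 261 cells led by Gm42418 had Rbp4 at 28.9 CPM, Aldh1a3 at 50.6 CPM and Crabp1 at 291 CPM. The P1 maxillary cluster of 365 cells led by Pomc, the hormone precursor gene of the pituitary, had Rbp4 at 54.5 CPM, Aldh1a2 at 52.0 CPM and Rarb at 102 CPM. The P1 mandibular cluster of 532 cells led by Frem2 had Cyp26a1 at 827 CPM.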

How the results depend on the processing

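Of 51 ratios past 2-fold, 41 kept their direction and stayed past 2-fold without the shared barcodes in either P1 library. Another 7 kept their direction only, and 3 changed sign: Aldh1a1 between layers in P1 maxillary (-1.26), Aldh1a1 between stages in maxillary epithelium (-0.33) and Cyp26b1 between stages in maxillary mesenchyme (0.14), in place of 2.09, 2.24 and -1.71. In that setting 4 others came to be past 2-fold. With means over cells in place of summed UMIs, 44 stayed, 6 kept their direction only, and Aldh1a2 between stages in mandibular epithelium changed sign (0.19). With each cell thinned to 1000 UMIs, 40 of 48 stayed, and with a minimum of 20 CPM 34 of 51, when the count between the jaws was 4 in place of 8. Counting the nasal and gland classes as epithelium, an alternative chosen after seeing the data like that on the unnamed cluster, left 39 of 43, and counting the Frem2 cluster left 42 of 43. Calls that ended were, with means over cells, Aldh1a2 (-2.40) and Crabp2 in maxillary epithelium (-0.99), Cyp26b1 in maxillary mesenchyme (-0.63), Aldh1a2 and Aldh1a3 in mandibular mesenchyme (-0.87 and -0.91) between stages and Aldh1a2 between the P1 jaws (0.91). With thinned cells they included Rarb between layers in P1 maxillary (-0.91), Aldh1a1, Crabp2 and Cyp26b1 between maxillary stages (0.89, -0.93 and -0.61), Aldh1a3 and Crabp1 in mandibular epithelium between stages (-0.75 and -1.14) and Aldh1a2 between the P1 jaws (0.82). With the nasal and gland classes counted they were Aldh1a3 between layers in E15.5 maxillary (-0.92), Rarb between layers in P1 maxillary (-0.94), and Aldh1a3 and Crabp2 in maxillary epithelium between stages (0.55 and -0.39). Without the highest doublet scores it was Aldh1a2 in maxillary epithelium between stages (-2.96). Aldh1a1 between layers ended in P1 mandibular at resolution 2.0 and with the Frem2 cluster counted (-0.79 in both), and in E15.5 mandibular without outlying cells (-0.95). At least 50 of 51 stayed under the other alternatives: shared barcodes kept in both libraries, at least 2000 UMIs, a filter on outlying cells, highest doublet scores removed, resolution 2.0, ratios centred on the median gene, and no minimum level. The cause of these shifts was not tested. Depth limits Aldh1a1 and Rbp4 in the P1 maxillary epithelium without shared barcodes, at 3 UMIs and 1 UMI. It also limits Cyp26b1 in E15.5 mandibular epithelium, at 1 UMI. No paired analysis was possible because each stage and jaw has 1 library and the groups share fewer than 2 replicate numbers.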

Other observations

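The P1 maxillary library also held cells of the nose in which several of these genes were high. Its 773 neuron-like cells had Crabp1 at 1442 CPM, Crabp2 at 93.8 CPM (82.8 to 106) and Rbp4 at 9.98 CPM (6.63 to 14.4). Its 508 olfactory sustentacular-like cells had Crabp2 at 343 CPM (321 to 366), Rarb at 171 CPM (156 to 188) and Aldh1a3 at 52.0 CPM (43.7 to 61.5), and no Cyp26a1 UMI.

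A P1 mandibular cluster of 41 cells led by Ptgds and Vtn had Crabp2 at 247 CPM (204 to 295), with a UMI in 56.1% of its cells, and Aldh1a1 at 67.8 CPM (46.7 to 95.2). Mesenchyme marked by Alx1, with Pax3 and Pax7 at 0, had Crabp1 at 449 CPM (414 to 486) in 121 cells of the same library, beside 438 CPM in its dental papilla-like cells.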
